A study of Stenocereus queretaroensis with 6 samples.

Results

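The enzymes and carriers that handle malate and carbon dioxide in crassulacean acid metabolism (CAM) were followed in *Stenocereus queretaroensis*, a fruit-bearing columnar cactus, grown as suspension cells, that is, as dispersed cells and small clumps in liquid. Members were the assembled transcript clusters whose best Swiss-Prot protein hit was described as phosphoenolpyruvate carboxylase (or its kinase), phosphoenolpyruvate carboxykinase, pyruvate, phosphate dikinase (or its regulatory protein), malate dehydrogenase, malic enzyme, aluminum-activated malate transporter, tonoplast dicarboxylate transporter or carbonic anhydrase. This rule took 296 of 170970 clusters, on 79 distinct Swiss-Prot proteins. The cells grew in MS, a mineral mixture widely used for cultured plant cells, with 3% or with 8% sucrose, and poly(A) RNA of 3 libraries per medium was sequenced. Libraries at 3% sucrose carry the letter Y in their titles and those at 8% the letter R, with no meaning given. The extraction protocol names only the first library of each medium. No label says that the libraries were separate cultures, so a p-value here reflects spread among libraries only, which could be technical.

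In CAM plants, phosphoenolpyruvate carboxylase (PEPC) fixes bicarbonate at night, carbonic anhydrase supplies that bicarbonate, and malate dehydrogenase (MDH) reduces the resulting oxaloacetate to malate, which is stored as malic acid in the vacuole. By day malate leaves the vacuole and is decarboxylated by malic enzymes or by phosphoenolpyruvate carboxykinase (PEPCK), and the carbon dioxide released is refixed by Rubisco. Pyruvate left by malic enzyme is returned to phosphoenolpyruvate by pyruvate, phosphate dikinase (PPDK). Every one of these enzymes also has functions outside CAM, in amino acid synthesis, the citric acid cycle and gluconeogenesis, and stem chlorenchyma, the green tissue, is where cacti run the CAM cycle.

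Total counts ranged from 35476032 to 41147265 per library, and members took 0.395% of the counts at 3% sucrose and 0.346% at 8% sucrose. Levels are given as CPM, that is, counts divided by the TMM-scaled library total, as mean ± SD over 3 libraries. A cluster rose or fell when its adjusted p in edgeR's quasi-likelihood test, 8% against 3% sucrose over 85038 clusters, was under 0.05. Most markers of chlorenchyma were lower at 8% sucrose. Of 53 tested clusters for chlorophyll-binding, oxygen-evolving, photosystem reaction center and Rubisco proteins, 36 fell and 2 rose. Their summed level was 1211 to 1255 CPM at 3% sucrose and 106 to 113 CPM at 8% sucrose, and none of these protein groups was at 0 in any library. Chlorophyll-binding proteins held most of the sum at 3% sucrose, with 917, 920 and 881 CPM. Photosystem II reaction center proteins differed less, with 10.05 to 11.5 CPM at 3% and 7.66 to 8.39 CPM at 8% sucrose. The Rubisco large chain alone went the other way, from 2.71, 2.85 and 3.04 CPM at 3% to 5.28, 7.46 and 8.04 CPM at 8% sucrose. In such bulk samples fewer cells of a type and less RNA per cell cannot be told apart. The part that this shift plays in the values of chloroplast enzymes given here was not tested.

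Of the 296 members, 199 passed the filter on low counts, and the 97 others had a mean of at most 39.2 counts. Of the 199 tested, 52 rose and 72 fell, and 75 showed no called change. That is 62.31% called, against 54.6% of all clusters tested, of which 29.1% rose and 25.6% fell. Among members 26.1% rose and 36.2% fell. The libraries of the media did not overlap for 144 of the 199, or 72.4%, against 67.6% of all clusters tested. The median log2 fold change was -0.27 for these members and 0.19 for all clusters tested. The latter depended on clusters with few reads, and was -0.24 when a mean of at least 100 counts was required. A cluster can pass the filter through 1 medium alone, so these counts only describe the set. When counts were summed over all clusters that share a Swiss-Prot hit, 60 of the 79 hits were tested, of which 20 rose and 31 fell. That is 85% called, against 80.1% of all hits tested, of which 29.9% rose and 50.1% fell. Libraries did not overlap for 54 of the 60 hits, or 90%, against 82.5% of all hits tested. The counts of calls given below for single classes are to be read beside these shares. Summed over all 296 members, the level was 4198 ± 122 CPM at 3% sucrose and 3302 ± 98.4 CPM at 8% sucrose, a ratio of 0.787. The sum over all clusters tested was 947100 CPM at 8% and 1056000 CPM at 3% sucrose, a ratio of 0.897. That sum is set by the TMM factors alone, so its ratio is not a measured change.

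**Figure D1:**
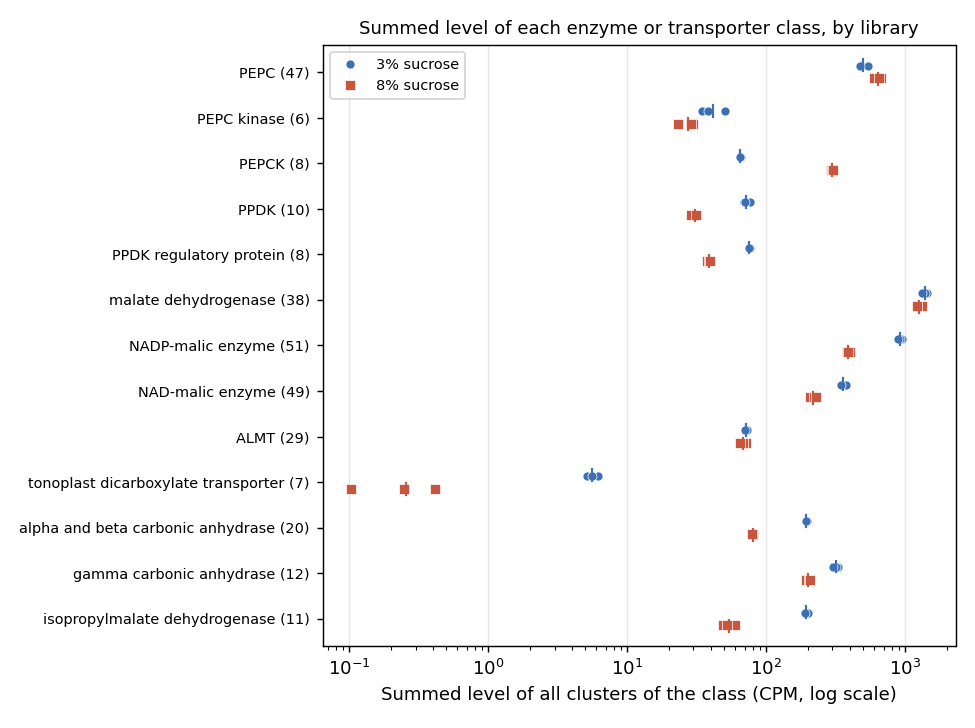
Summed level in CPM, on a log axis, of all clusters of each enzyme or transporter class, with the number of clusters in parentheses; points are libraries and short lines are means over 3 libraries. The carboxykinase and carboxylase sums lay higher at 8% sucrose, the ALMT sums overlapped between the media, and the other sums lay lower at 8% sucrose. The sum over all clusters tested is not drawn, as it is set by the TMM factors alone.

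PEPC, the enzyme that makes the night-time carboxylation, had 47 clusters, of which 25 were tested. Of these, 4 rose and 9 fell, or 52% called, near the 54.6% of all clusters tested. By direction 16% rose and 36% fell, against 29.1% and 25.6% of all clusters tested. Most PEPC reads belonged to clusters whose best hit was P10490, PEPC 1 of the common ice plant (*Mesembryanthemum crystallinum*), which in that species is the isoform induced when CAM is switched on. Summed over the 12 clusters of this hit, the level was 404, 457 and 398 CPM in the libraries at 3% sucrose and 581, 652 and 632 CPM in those at 8% sucrose. All libraries at 8% sucrose lay above all at 3% sucrose. The hit rose 1.48-fold, with a log2 fold change of 0.57 ± 0.07 (SE; edgeR adjusted p = 5.99e-05).

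The clusters of this hit did not move as one. Cluster-2051.80862 had 142, 172 and 144 CPM at 3% sucrose and 256, 279 and 267 CPM at 8% sucrose, and Cluster-2051.78718 had 151, 138 and 139 CPM against 242, 278 and 275 CPM. Both rose, by log2 fold changes of 0.81 ± 0.08 (edgeR adjusted p = 0.000298) and 0.89 ± 0.07 (edgeR adjusted p = 8.68e-05). Cluster-2051.78892, with the same best hit, went from 103 ± 6.85 to 67.7 ± 3.74 CPM and fell by 0.61 on the log2 scale (SE 0.07; edgeR adjusted p = 0.000523). All of these clusters also had the same best NR protein, PEPC 1 of sugar beet. An assembler can split one gene, its alleles or close copies into several clusters that then share reads, which leaves the change of each single cluster uncertain.

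The PEPC clusters with other best hits were lower at 8% sucrose in sum, with 78.1 ± 4.46 CPM at 3% and 15.0 ± 1.34 CPM at 8% sucrose. Cluster-2051.80863, best matched by a sorghum PEPC 2, had 30.8, 36.8 and 29.9 CPM at 3% sucrose against 2.51, 2.71 and 2.97 CPM at 8% sucrose. These groups lie far apart, and the cluster fell by 3.57 on the log2 scale (SE 0.13; edgeR adjusted p = 2.75e-06). Cluster-2051.135973 matched PEPC 4 of Arabidopsis, a bacterial-type PEPC in that species, and dropped from 6.79 ± 1.05 to 0.315 ± 0.133 CPM (log2 fold change -4.45 ± 0.35, edgeR adjusted p = 7.64e-05). Summed over hits, 6 of the 10 PEPC hits tested fell, or 60%, near the 50.1% of all hits tested. Among them P29193, a housekeeping isozyme of sugarcane, went from 13.6 ± 0.717 to 2.17 ± 0.424 CPM. The 3 PEPC hits that rose were P10490 and a pair of hits at no more than 1.36 CPM in either medium, P51063 of Norway spruce and P29196 of potato.

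The class as a whole summed to 498 ± 37.2 CPM at 3% and 637 ± 38.1 CPM at 8% sucrose, a ratio of 1.28. In the deposited FPKM, which divide by cluster length, the P10490 clusters summed to 130 ± 12.5 at 3% and 212 ± 12.1 at 8% sucrose. The FPKM sum of the whole class, 310 ± 40.9 at 3% and 254 ± 24.6 at 8% sucrose, went against the CPM, and this rested on 1 untested cluster of 203 bp. That cluster, Cluster-2051.94530 (hit P16097, PEPC 2 of the ice plant), had 9, 4 and 4 counts at 3% and 0, 1 and 1 counts at 8% sucrose, which the deposited FPKM give as a mean of 103.9 and 12.98. Without its hit the class summed to 206 ± 14.2 FPKM at 3% and 241 ± 13.4 FPKM at 8% sucrose, in the direction of the CPM. The clusters of the remaining hits, without P10490 and P16097, summed to 75.9 ± 1.77 FPKM at 3% and 28.9 ± 1.33 FPKM at 8% sucrose.

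PEPC kinase, which phosphorylates PEPC and makes it less sensitive to inhibition by malate, had 6 clusters, of which 3 were tested, 2 fell and 1 did not pass. The member with the most reads, Cluster-2051.43799, had 37.0, 22.6 and 24.2 CPM at 3% sucrose and 19.0, 25.7 and 25.0 CPM at 8% sucrose. The groups overlapped and the cluster did not pass the test (log2 fold change -0.27 ± 0.21, edgeR adjusted p = 0.332). Cluster-2051.77362 fell from 10.4 ± 0.811 to 2.64 ± 0.287 CPM (log2 fold change -1.98 ± 0.15, edgeR adjusted p = 6.93e-05). Summed over its clusters, the hit Q9SPK4, PEPC kinase 1 of Arabidopsis, went from 41.0 ± 8.55 to 26.9 ± 3.55 CPM and fell by 0.61 (SE 0.15; edgeR adjusted p = 0.00454).

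**Figure D2:**
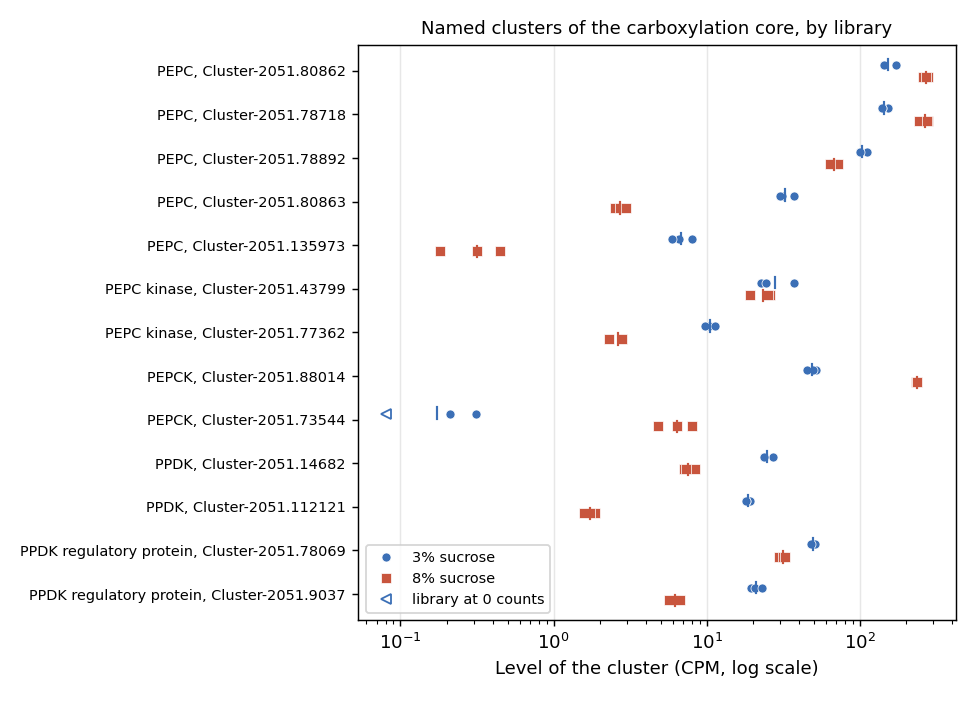
Level in CPM, on a log axis, of the named clusters for PEPC, its kinase, PEPCK, PPDK and the PPDK regulatory protein; points are libraries, short lines are means, and an open triangle marks a library at 0 counts, placed left of the values. Both PEPCK clusters and the 2 PEPC clusters with the most reads lay higher at 8% sucrose, and the libraries of PEPC kinase Cluster-2051.43799 overlapped.

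Carbonic anhydrases interconvert carbon dioxide and bicarbonate, the substrate of PEPC. The beta and chloroplast forms summed to 194 ± 2.26 CPM at 3% sucrose and 71.8 ± 0.630 CPM at 8% sucrose, and of their 11 tested clusters 6 fell and 2 rose. Cluster-2051.127395, best matched by a tobacco chloroplast carbonic anhydrase, had 87.4, 92.2 and 87.3 CPM at 3% and 19.7, 22.8 and 20.2 CPM at 8% sucrose, without overlap. It fell by 2.09 on the log2 scale (SE 0.08; edgeR adjusted p = 2.76e-06), and the sum of its hit P27141 went from 149 ± 2.20 to 50.3 ± 1.28 CPM. Beta carbonic anhydrase 5 (Q94CE3) went from 43.5 ± 1.86 to 19.1 ± 0.921 CPM and fell by 1.19 (SE 0.06).

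Alpha carbonic anhydrases, a separate family of the same activity, moved the other way. All 3 tested clusters of this family rose, and the sum went from 0.915 ± 0.168 to 7.67 ± 0.557 CPM. In deposited FPKM the sum was 3.01 ± 0.544 at 3% and 30.3 ± 1.25 at 8% sucrose, against 179.7 ± 1.14 and 69.9 ± 1.16 for the beta and chloroplast forms. Cluster-2051.48780, matched by alpha carbonic anhydrase 7 of Arabidopsis, had 0.553, 0.784 and 0.905 CPM at 3% and 5.29, 5.34 and 4.63 CPM at 8% sucrose. Its libraries did not overlap, and it rose 6.81-fold (log2 fold change 2.75 ± 0.26, edgeR adjusted p = 0.000173). Alpha carbonic anhydrase 8 (Q9FM99) rose from 0.118 ± 0.0540 to 1.81 ± 0.207 CPM.

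Gamma carbonic anhydrases form a domain of mitochondrial complex I in plants, and were taken by the same name. Their 12 clusters summed to 317 ± 12.9 CPM at 3% and 201 ± 5.41 CPM at 8% sucrose, and of 9 tested, 3 fell and 2 rose. The cluster with the most reads, Cluster-2051.100540, had 167, 166 and 154 CPM at 3% against 72.9, 75.3 and 72.9 CPM at 8% sucrose. It fell by 1.14 on the log2 scale (SE 0.05; edgeR adjusted p = 7.55e-06). Cluster-2051.66845, with the same best hit (gamma carbonic anhydrase 1 of Arabidopsis), rose from 0.677 ± 0.153 to 4.18 ± 0.272 CPM.

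PEPCK, which decarboxylates oxaloacetate to phosphoenolpyruvate with ATP and serves gluconeogenesis as well as the daytime phase of some CAM plants, was higher at 8% sucrose throughout. All 7 of its tested clusters rose, and the one not tested matched a bacterial protein at 0.150 CPM at 3% and 0.142 CPM at 8% sucrose. The cluster with the most reads, Cluster-2051.88014, had 51.3, 49.3 and 44.9 CPM at 3% sucrose and 230.0, 234 and 236 CPM at 8% sucrose. The libraries of each medium lay close together and far from those of the other, and the cluster rose 4.81-fold (log2 fold change 2.27 ± 0.06, edgeR adjusted p = 1.25e-06).

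Cluster-2051.73544 was near the limit of detection at 3% sucrose, with 0.210, 0 and 0.309 CPM, and had 8.02, 6.42 and 4.78 CPM at 8% sucrose (log2 fold change 5.23 ± 0.79, edgeR adjusted p = 0.00158). The log2 fold change was 4.6 without replicate 2 and 5.91 without replicate 3 at 3% sucrose. Summed over 6 clusters, the hit Q9T074, PEPCK of Arabidopsis, had 61.1, 59.0 and 57.3 CPM at 3% and 282, 289 and 294 CPM at 8% sucrose, and rose by 2.29 on the log2 scale (SE 0.05; edgeR adjusted p = 1.89e-09). The hit P49292, a PEPCK of the grass *Urochloa panicoides*, rose less, from 5.76 ± 1.19 to 9.31 ± 1.83 CPM. In deposited FPKM the level of Q9T074 was 26.2 at 3% and 141 at 8% sucrose, against 130 and 212 for the PEPC hit P10490. Sums of FPKM depend on the lengths of the assembled clusters, as the 203 bp PEPC cluster showed. Here and elsewhere they compare different proteins only roughly.

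**Figure D3:**
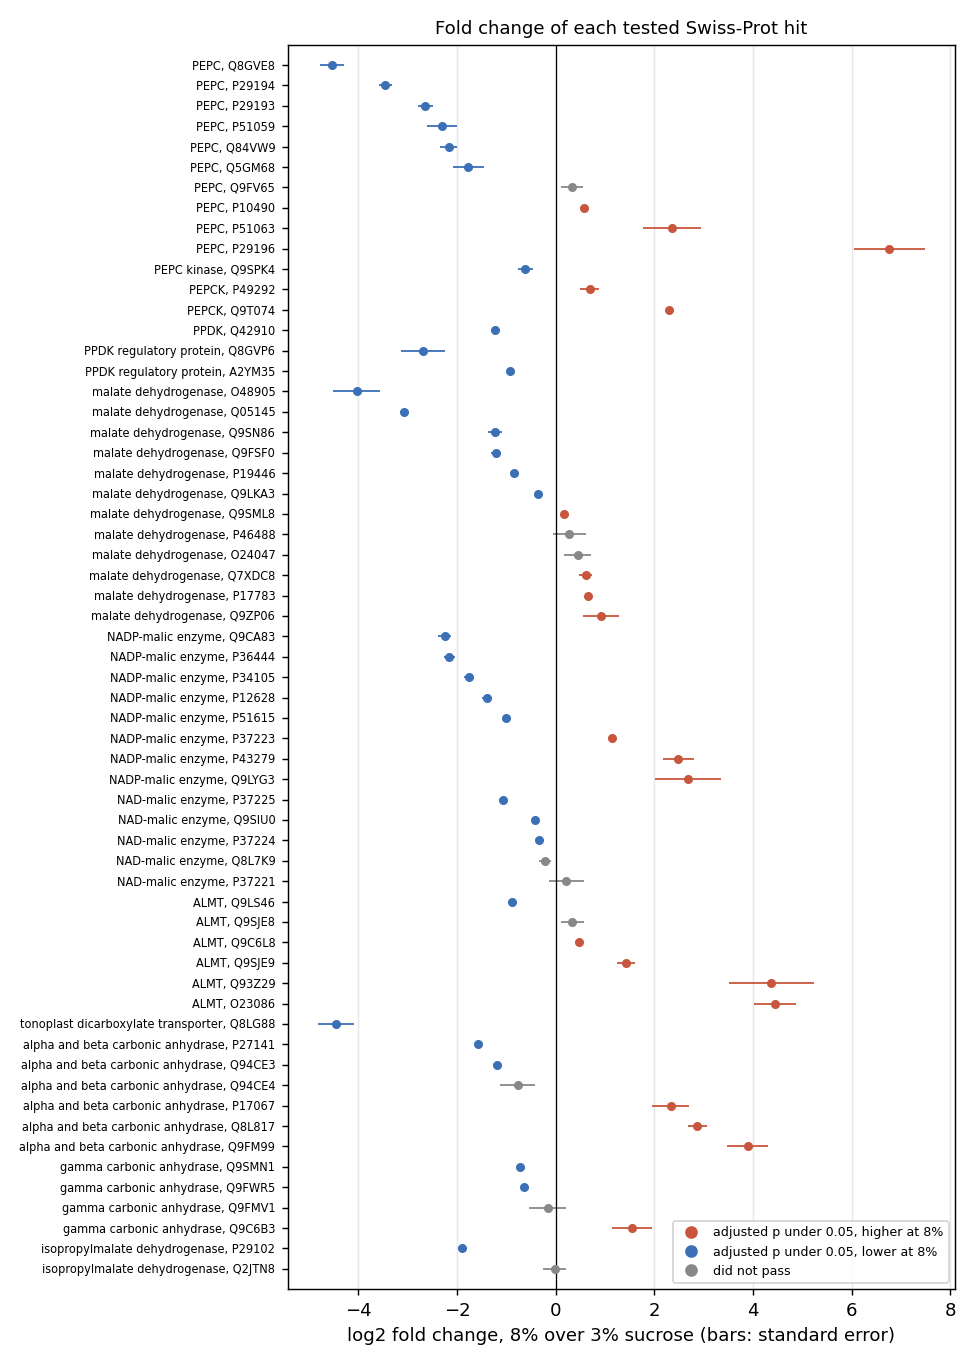
Log2 fold change, 8% over 3% sucrose, of the 60 member hits tested, with counts summed over the clusters of each Swiss-Prot hit; bars are standard errors and colours give the call. Hits that rose and hits that fell stood side by side within the PEPC, malate dehydrogenase, NADP-malic enzyme, ALMT and carbonic anhydrase classes, while both PEPCK hits rose and all PPDK, PPDK regulatory protein and tonoplast dicarboxylate transporter hits fell.

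NADP-malic enzyme decarboxylates malate to pyruvate with NADP and is the main daytime decarboxylase in many CAM plants, cacti included. It had 51 clusters, and of 37 tested, 18 fell and 13 rose. Their sum was 920 ± 25.2 CPM at 3% and 390 ± 8.97 CPM at 8% sucrose. By the name of the best hit, the 18 clusters called chloroplastic summed to 555 ± 14.5 CPM at 3% and 126 ± 10.7 CPM at 8% sucrose, with 11 of 15 tested clusters lower and 2 higher. The 33 clusters without a compartment in the hit name summed to 365 ± 15.4 and 264 ± 8.42 CPM, and here 11 of 22 rose and 7 fell. The name comes from the nearest database protein, and the location of the cactus protein was not measured.

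Among them Cluster-2051.76074 took the most reads, with 366, 316 and 281 CPM at 3% sucrose against 63.0, 78.9 and 81.4 CPM at 8% sucrose. It fell by 2.11 on the log2 scale (SE 0.13; edgeR adjusted p = 2.87e-05), and its best Swiss-Prot hit was P36444, the chloroplast enzyme of *Flaveria pringlei*. Cluster-2051.76070, of the same hit, went from 50.7 ± 2.002 to 7.99 ± 0.711 CPM and also fell (edgeR adjusted p = 2.17e-06). In the NR protein database both were closest to an NADP-malic enzyme of *Hylocereus undatus*, a cactus. In all, 25 members were closest to a protein of that species, and these summed to 704 ± 58.7 CPM at 3% and 194 ± 9.25 CPM at 8% sucrose. Cluster-2051.76074 alone made up 44.0% of their level. Of their 18 tested clusters 10 were lower and 3 higher (72.2% called).

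The largest falls among members with a mean of at least 100 counts included NADP-malic enzyme 4 (Q9CA83, named for a chloroplast enzyme of Arabidopsis). Cluster-2051.76072 had 12.4, 15.8 and 18.6 CPM at 3% and 0.327, 0.716 and 0.292 CPM at 8% sucrose (log2 fold change -5.14 ± 0.37, edgeR adjusted p = 4.94e-05), and Cluster-2051.72587 went from 19.9 ± 3.73 to 1.11 ± 0.384 CPM (log2 fold change -4.15 ± 0.29). Both carry 2 predicted coding regions, on 6432 and 6518 bp, and the share of each region in the reads was not measured. The whole hit went from 177 ± 33.5 to 37.3 ± 0.465 CPM and fell by 2.25 (SE 0.13).

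Other NADP-malic enzymes rose. Within the grapevine hit P51615, Cluster-2051.86261 had 18.2, 18.3 and 18.2 CPM at 3% and 50.0, 58.1 and 54.3 CPM at 8% sucrose and rose 2.97-fold (log2 fold change 1.57 ± 0.08, edgeR adjusted p = 8.32e-06). Cluster-2051.86263 of that hit rose 20.2-fold, from 0.316 ± 0.111 to 6.39 ± 1.51 CPM. The hit as a whole nevertheless fell, from 272 ± 19.8 to 135 ± 2.42 CPM, as Cluster-2051.76075 went from 208 to 53.2 CPM. P37223, the NADP-malic enzyme of the ice plant, went from 49.6, 55.8 and 51.2 CPM to 122, 117 and 108 CPM. It rose 2.21-fold without overlap (log2 fold change 1.14 ± 0.07, edgeR adjusted p = 3.64e-07), and Cluster-2051.56017 held most of it, with 33.9 CPM at 3% and 95.2 CPM at 8% sucrose.

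NAD-malic enzyme is the mitochondrial counterpart. Of 49 clusters 31 were tested, 9 fell and 7 rose, and the sum was 360 ± 12.9 CPM at 3% and 219 ± 10.48 CPM at 8% sucrose. Cluster-2051.83917, best matched by the 59 kDa isoform of potato, had 110, 118 and 107 CPM at 3% and 47.8, 46.8 and 48.2 CPM at 8% sucrose. It fell by 1.23 on the log2 scale (SE 0.06; edgeR adjusted p = 7.51e-06). The enzyme is built of 2 kinds of subunit in potato and Arabidopsis. Of the 5 hits tested 3 fell, among them the 59 kDa hit P37225, from 210 ± 10.4 to 101 ± 6.005 CPM. NAD-malic enzyme 1 of Arabidopsis (Q9SIU0) also fell, from 72.0 ± 4.14 to 53.9 ± 5.93 CPM. The other 2 did not pass and their libraries overlapped. NAD-malic enzyme 2 of Arabidopsis (Q8L7K9) had 12.5 ± 0.867 and 10.8 ± 1.72 CPM (edgeR adjusted p = 0.151). The 62 kDa isoform of potato (P37221) had 3.10 ± 0.452 and 3.59 ± 1.91 CPM (edgeR adjusted p = 0.588). Cluster-2051.86397, matched to Q9SIU0, rose from 0.252 ± 0.125 to 1.43 ± 0.297 CPM.

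PPDK, the enzyme that regenerates phosphoenolpyruvate from pyruvate, had 10 clusters, all tested and all with one best hit, the chloroplast PPDK of the ice plant (Q42910). Summed, they had 69.0, 75.9 and 70.2 CPM at 3% sucrose and 31.4, 28.9 and 31.2 CPM at 8% sucrose. The media did not overlap, and the hit fell by 1.23 on the log2 scale (SE 0.06; edgeR adjusted p = 1.14e-07). Of the single clusters 2 fell and 8 did not pass. Those that fell were Cluster-2051.14682, from 24.8 ± 1.90 to 7.58 ± 0.715 CPM (edgeR adjusted p = 3.02e-05), and Cluster-2051.112121, from 18.5 ± 0.671 to 1.73 ± 0.138 CPM (edgeR adjusted p = 2.60e-06).

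The PPDK regulatory protein switches PPDK off in the dark and on in the light by phosphorylation and dephosphorylation. Of its 8 clusters 6 were tested, 4 fell and 2 did not pass, and the sum was 75.7 ± 0.998 CPM at 3% and 38.6 ± 1.18 CPM at 8% sucrose. Cluster-2051.78069 had 49.4, 50.6 and 48.0 CPM against 29.6, 31.3 and 32.5 CPM (log2 fold change -0.66 ± 0.06, edgeR adjusted p = 0.000193). Cluster-2051.9037 went from 21.0 ± 1.81 to 6.20 ± 0.524 CPM and fell by 1.76 (SE 0.12).

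Malate dehydrogenase, which interconverts oxaloacetate and malate in several compartments, had the highest sum of deposited FPKM of all classes, 990.0 ± 20.6 at 3% and 885 ± 21.1 at 8% sucrose. Over its 38 clusters the sum was 1385 ± 48.9 CPM at 3% and 1260 ± 46.3 CPM at 8% sucrose, and of 26 tested, 11 fell and 6 rose. The ratio of these sums was 0.91. The clusters are described here by the compartment in the hit name. NADP-dependent chloroplast MDH is an enzyme activated by light, and its Cluster-2051.25016 had 47.7, 45.6 and 44.2 CPM at 3% sucrose and 5.25, 5.69 and 5.23 CPM at 8% sucrose. It fell by 3.09 on the log2 scale (SE 0.08; edgeR adjusted p = 9.22e-07). Chloroplast NAD-dependent MDH (Q9SN86) went from 337 ± 32.0 to 144 ± 29.1 CPM and fell by 1.22 (SE 0.14). Of its 3 clusters 1 fell, 1 rose and 1 did not pass. Cluster-2051.67345, the one that fell, made up 86.5% of the hit.

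Glyoxysomal MDH, an enzyme of the peroxisome that takes part in fatty acid breakdown and photorespiration, summed to 178 ± 5.21 CPM at 3% and 99.97 ± 3.43 CPM at 8% sucrose, and of 9 tested clusters 5 fell and 4 did not pass. Cytosolic MDH, the form placed beside PEPC in the CAM cycle, came mostly from Cluster-2051.78079, best matched by the sugar beet protein. It had 387, 385 and 368 CPM at 3% and 409, 448 and 429 CPM at 8% sucrose. Its libraries did not overlap, but the log2 fold change was small, 0.17 ± 0.05 (edgeR adjusted p = 0.0250). The median of all clusters tested was 0.19, and -0.24 when a mean of at least 100 counts was required. With DESeq2 the adjusted p was 0.106, and with edgeR's RLE size factors it was 0.169. The call was also lost when any single library but replicate 1 at 8% sucrose was left out, with log2 fold changes of 0.08 to 0.21 over the 6 fits. In deposited FPKM its mean was the highest of all member hits in either medium, 319 at 3% and 400 at 8% sucrose.

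**Figure D4:**
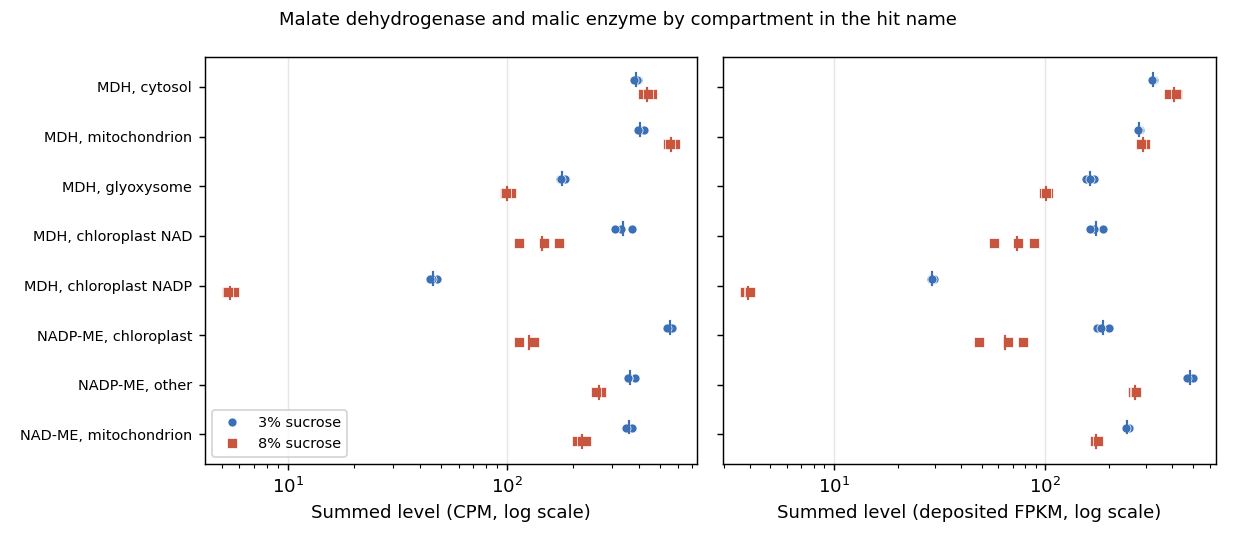
Summed level of malate dehydrogenase and malic enzyme clusters by the compartment in the name of the best Swiss-Prot hit, in CPM (left) and in deposited FPKM (right), both on log axes; points are libraries and short lines are means. Chloroplast NADP-dependent MDH lay farthest apart between the media, and mitochondrial MDH lay higher at 8% sucrose in CPM by more than in FPKM.

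Mitochondrial MDH, an enzyme of the citric acid cycle, could not be read from its sum alone. Its 7 clusters summed to 405 ± 13.4 CPM at 3% and 560 ± 21.2 CPM at 8% sucrose. The hit with the most reads, P17783 of watermelon, had 5 clusters, of which 3 rose and 1 fell. In 4 of the 5 the best NR protein was not an MDH but a transcription factor GTE4-like, a bromodomain protein, and in 3 of these a second coding region lay on the opposite strand of the same cluster. In Cluster-2051.78788, 5109 bp long, the MDH reading frame spans bases 304 to 1572 and the other frame bases 2358 to 4571. Since the NEBNext Ultra kit keeps no strand information, reads from both genes enter one count.

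Those 4 clusters summed to 102 ± 7.86 CPM at 3% and 361 ± 15.9 CPM at 8% sucrose. Cluster-2051.78788 rose from 42.6, 50.3 and 53.6 CPM to 180.0, 195 and 206 CPM (log2 fold change 1.99 ± 0.10, edgeR adjusted p = 1.07e-05), and Cluster-2051.79316 from 1.31 ± 1.44 to 17.3 ± 2.56 CPM (log2 fold change 3.72, and 5.09 without replicate 3 at 3% sucrose). Cluster-2051.78787, the one whose best NR protein is not GTE4-like, holds the same MDH frame and had 203, 214 and 188 CPM at 3% and 116, 126 and 115 CPM at 8% sucrose. It moved in the other direction and fell by 0.77 (SE 0.07; edgeR adjusted p = 0.000129). Without the 4 clusters mitochondrial MDH summed to 303 ± 13.7 CPM at 3% and 198 ± 9.27 CPM at 8% sucrose, so the direction of the sum depended on them. The second mitochondrial hit, MDH 2 of Arabidopsis (Q9LKA3), went from 101 ± 3.94 to 78.5 ± 4.004 CPM and fell by 0.36 (SE 0.06; edgeR adjusted p = 0.000364).

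**Figure D5:**
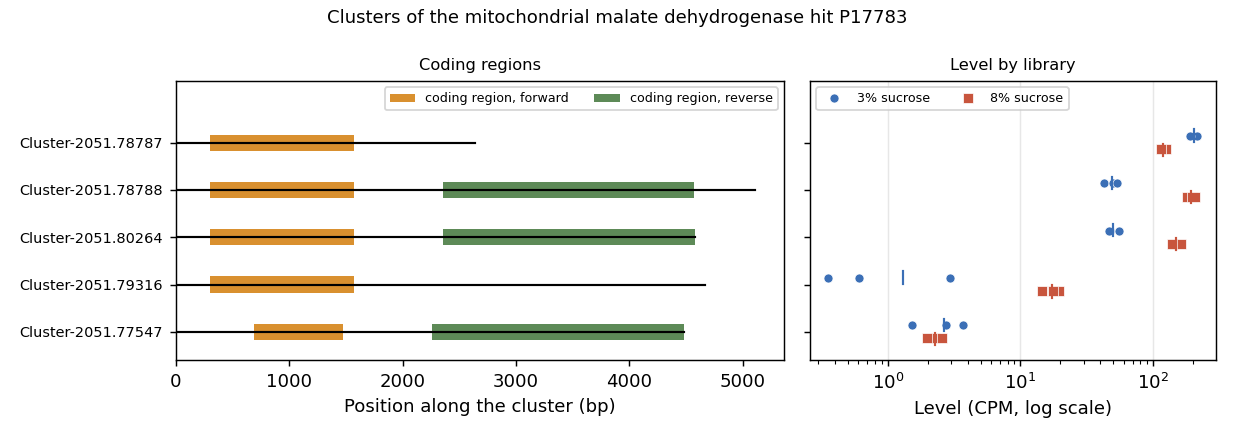
The 5 clusters of the mitochondrial MDH hit P17783: predicted coding regions along each cluster in bp (left, forward strand in orange and reverse strand in green) and level in CPM on a log axis (right, points are libraries and short lines are means). Cluster-2051.78787, at the top, lay lower at 8% sucrose and the next 3 lay higher, among them Cluster-2051.79316, for which a single coding region was also predicted.

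Among the 296 members 67 carried more than 1 predicted coding region, 55 of them with 2 and 12 with 3, and in 4 these lay on opposite strands, 3 of them of the hit P17783. The best NR protein named the same family for 255 members, named no family for 35 and named another protein for 6, of which 4 were the GTE4-like clusters. A bacterial best hit was found for 11 members, which together had 3.30 ± 0.668 CPM at 3% and 3.06 ± 0.363 CPM at 8% sucrose, and the 1 tested did not pass.

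Aluminum-activated malate transporters (ALMT) are anion channels, several of which let malate into the vacuole or out of the cell. Their total overlapped between the media, with 70.7, 73.0 and 69.9 CPM at 3% and 72.0, 67.8 and 64.8 CPM at 8% sucrose. Of 20 tested clusters 5 rose and 4 fell. ALMT9 of Arabidopsis is a vacuolar chloride and malate channel, and its hit Q9LS46 went from 41.5 ± 2.01 to 22.5 ± 2.08 CPM and fell by 0.88 (SE 0.08; edgeR adjusted p = 5.90e-06). Within it Cluster-2051.99902 had 28.9, 29.2 and 26.8 CPM against 19.9, 19.8 and 17.5 CPM (edgeR adjusted p = 0.00141), and Cluster-2051.8553 went from 10.1 ± 0.744 to 2.21 ± 0.332 CPM. Cluster-2051.99902 made up 74.0% of the hit, but its best NR protein was ALMT4 of sugar beet. Which of the 2 channels it encodes is therefore uncertain.

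The Swiss-Prot hit to ALMT4 (Q9C6L8), also a vacuolar channel in Arabidopsis, moved the other way, from 18.2, 20.9 and 21.5 CPM to 29.6, 26.6 and 27.9 CPM. Its media did not overlap, and it rose 1.39-fold (log2 fold change 0.47 ± 0.08, edgeR adjusted p = 0.000533). The hit to ALMT1 (Q9SJE9), which in Arabidopsis roots releases malate to the soil, rose 2.68-fold from 2.32 ± 0.474 to 6.22 ± 0.437 CPM. Its 5 clusters were split, with 2 higher and 1 lower at 8% sucrose, 1 without a called change and 1 untested. Among the higher ones, Cluster-2051.113251 rose from 0.206 ± 0.121 to 3.30 ± 0.998 CPM (edgeR adjusted p = 0.000769). Its Swiss-Prot match had an E-value of only 1.3e-09, and its best NR protein was a conserved hypothetical protein of *Ricinus communis*. Whether this cluster encodes ALMT1 is therefore uncertain. ALMT10 (O23086) rose from 0.108 ± 0.0659 to 2.48 ± 0.400 CPM.

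The tonoplast dicarboxylate transporter carries malate across the vacuolar membrane in Arabidopsis. All 7 of its clusters shared the hit Q8LG88, and their sum was 6.17, 5.12 and 5.57 CPM at 3% sucrose and 0.414, 0.246 and 0.103 CPM at 8% sucrose. The libraries at 8% sucrose were all below those at 3% and close to the limit that a count of 0 allows, 3 counts or 0.0776 to 0.0820 CPM. The hit fell by 4.45 on the log2 scale (SE 0.36; edgeR adjusted p = 3.50e-06), and each of the 3 clusters tested fell. Cluster-2051.135090 had 1.98, 1.87 and 1.32 CPM at 3% sucrose and 0, 0 and 0.0259 CPM at 8% sucrose, and Cluster-2051.135085 went from 1.77 ± 0.711 to 0.147 ± 0.211 CPM (edgeR adjusted p = 0.0297). The call on the latter was lost when replicate 1 or 2 of the 3% medium (edgeR adjusted p = 0.0579 and 0.0885) or replicate 3 of the 8% medium (edgeR adjusted p = 0.0899) was left out, with log2 fold changes of -5.9 to -2.99 over the 6 fits that leave out 1 library, the lowest without replicate 1 at 8% sucrose.

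Isopropylmalate dehydrogenase, an enzyme of leucine synthesis in the chloroplast, met the wording of the rule through its name alone. Its main cluster, Cluster-2051.81097, had 187, 197 and 186 CPM at 3% and 40.5, 51.5 and 42.8 CPM at 8% sucrose and fell by 2.08 (SE 0.10; edgeR adjusted p = 7.53e-06). Cluster-2051.123863 was at 0 in all libraries of the 3% medium and at 0.976, 1.68 and 1.32 CPM at 8% sucrose. It was at least 16-fold higher there, taken against the mean CPM of 3 counts per library. Without this enzyme 285 members remained, of which 49 rose and 71 fell, at 4004 ± 119 CPM and 3249 ± 92.9 CPM.

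For 5 groups of proteins that feed or surround the cycle the summed level was lower at 8% sucrose, while the counts of calls differed from list to list. For the vacuolar proton pumps, which drive malate into the vacuole, 58 of 106 tested clusters fell and 14 rose (67.9% called, against 54.6% of all clusters), with sums of 6582 ± 186 and 2821 ± 110 CPM. The one with the most reads, Cluster-2051.67882 (vacuolar pyrophosphatase), had 890, 946 and 895 CPM at 3% and 213, 198 and 172 CPM at 8% sucrose and fell by 2.23 (SE 0.08; edgeR adjusted p = 3.33e-06). Among glycolytic enzymes that supply or use phosphoenolpyruvate, 47 of 117 fell and 20 rose. The 57.3% called was near the share of all clusters, but 40.2% fell and 17.1% rose, against 25.6% and 29.1%. Enolase Cluster-2051.77744 went from 1357 ± 38.1 to 591 ± 26.7 CPM.

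Plastid starch breakdown, the source of phosphoenolpyruvate at night in many CAM plants, had 17 clusters that fell and 15 that rose of 56 tested (57.1% called, 26.8% higher and 30.4% lower, near the shares of all clusters), with sums of 1543 ± 25.3 and 642 ± 23.8 CPM. Its top cluster, Cluster-2051.84372, matched an inactive beta-amylase 9, a homologue without the catalytic activity of its name. Enzymes that interconvert malate, citrate and aspartate had 26 that fell and 20 that rose of 78 (59.0% called), and their cluster with the most reads, the mitochondrial citrate synthase Cluster-2051.100767, went from 228 ± 8.61 to 108 ± 2.55 CPM. Organic acid carriers of other membranes had 11 that rose and 10 that fell of 28 (75% called). The carrier cluster with the most reads, Cluster-2051.78651 (mitochondrial dicarboxylate/tricarboxylate transporter), had 202, 212 and 201 CPM against 42.7, 44.8 and 40.9 CPM. It fell by 2.26 (SE 0.06; edgeR adjusted p = 9.38e-07).

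In the authors' deposited table, 68 of the 72 members that fell here were called lower at 8% sucrose and 46 of the 52 that rose were called higher. None was called in the opposite direction there.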

How the data were processed

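Sequencing was of poly(A) RNA with the NEBNext Ultra kit, per the labels. FastQC, Trimmomatic 0.36, Bowtie2 and RSEM were used, per the submitters' processing notes; the assembler is not given in the sources used here. The authors deposited, per the file headers, an expected count and a length-scaled FPKM for each cluster and library. The authors' deposited log2 ratio and q-value entered only through their calls, and the deposited score was not used. Other deposited values used were lengths, coding regions and best protein hits.

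Expected counts were rounded, filtered (filterByExpr), scaled (TMM) and tested in edgeR 4.0.16 with glmQLFTest, without covariates, adjusting over 85038 clusters or 13187 hits by Benjamini-Hochberg. The fold is 8% over 3% sucrose. The common biological coefficient of variation was 41.4%. An SE is the log2 fold change over the root of F. Limits of 3 counts cover counting error only. Replicate libraries differed by more than sampling noise. Alternatives were RLE factors, DESeq2 1.42.0, other filters, a replicate block, leaving out each library, and limma 3.58.1 on log2(FPKM + 1).

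Members and lists were chosen with earlier results of these data known. Clusters named were, per class, the one with the most reads and those with the smallest adjusted p in each direction, core-enzyme clusters with a mean of at least 1000 counts, and the 3 largest rises and falls over 100 counts. Cluster-2051.76075, Cluster-2051.56017 and Cluster-2051.78787, and hits beyond those of named clusters, were added after their values were seen.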

Additional observations from a re-analysis of the deposited data

How the results depend on the processing

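Precision was limited by 3 libraries per medium, by clusters that share reads and by levels near 3 counts. Of the named clusters 415 values kept their direction and side of the threshold and 11 lost the call, and of the named hits 236 did and 6 lost it. The lost calls were those of Cluster-2051.78079 with its hit Q9SML8 and of Cluster-2051.135085. No result reversed its direction in a test. Requiring a mean of at least 100 counts, which tests fewer clusters, left 10024 clusters higher and 13629 lower over all. Of 88 members then tested 74 were called, 21 of them higher, and of 40 member hits 37 were called, 10 of them higher. DESeq2 called 52 members higher and 76 lower. Leaving out 1 library gave 44 to 52 members higher and 66 to 72 lower, and 18 to 21 hits higher and 31 to 34 lower. Deviations of same-numbered libraries correlated at 0.0312, 0.0044 and 0.0134, and those of differently numbered ones at -0.0365 to 0.0252. No label pairs the libraries, and with so few of them these values cannot show whether they were paired. With the replicate number as a block 46 members rose and 65 fell, and 19 hits rose and 31 fell; the block also ended the call on Cluster-2051.135085 (log2 fold change -4.18, edgeR adjusted p = 0.0616). As log2 ratios, the sums in deposited FPKM were -0.18 for PEPC kinase, -0.28 for PEPC (the opposite sign of CPM, from 1 cluster of 203 bp with few counts), 2.3 for PEPCK, -0.85 for the PPDK regulatory protein, -1.8 for PPDK, -1.02 for NADP-malic enzyme, -0.49 for NAD-malic enzyme, 0.09 for ALMT (also the opposite sign), -0.51 for gamma and -0.86 for alpha and beta carbonic anhydrase. Over tested clusters alone, chosen after seeing the data, the FPKM ratios were -0.22 for PEPC kinase, 0.19 for PEPC, 2.3 for PEPCK, -0.86 for the PPDK regulatory protein, -1.8 for PPDK, -1.02 for NADP-malic enzyme, -0.5 for NAD-malic enzyme, 0.1 for ALMT, -0.52 for gamma and -0.88 for alpha and beta carbonic anhydrase. With RLE factors the log2 ratios of the CPM sums were 2.14 for PEPCK, -1.03 for the PPDK regulatory protein, -1.29 for NADP-malic enzyme and -1.34 for alpha and beta carbonic anhydrase. Without members of 2 or more coding regions, chosen after seeing the data, the log2 ratios of the CPM sums were -0.92 for the PPDK regulatory protein, -0.48 for malate dehydrogenase, -1.12 for NADP-malic enzyme, 0.16 for ALMT, -0.75 for gamma and -1.33 for alpha and beta carbonic anhydrase. The cause of the other shifts was not tested.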

Other observations

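In the deposited KEGG orthology annotation the term for PEPC was carried by 45 of the 47 PEPC clusters, that for PEPCK by all 8 and that for PPDK by all 10, and 0 clusters outside the members carried any of these 3 terms. All 6 PEPC kinase clusters carried the term of a calcium/calmodulin-dependent kinase, which was also found on 1 other cluster.

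By best NR protein, 135 of the 296 members were closest to sugar beet, 25 to the cactus *Hylocereus undatus* and 10 to the ice plant. Counting the other cactus species too, 44 members were closest to a cactus protein. Of these 27 were tested, and 5 rose and 10 fell, or 55.6% called, near the 54.6% of all clusters tested. By direction 18.5% rose and 37.0% fell, against 29.1% and 25.6% of all clusters tested.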
